A study of Homo sapiens with 4 samples.

Results

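Translation initiation and elongation factors are the soluble proteins that work with the ribosome: they find the start codon, join the subunits and move the ribosome along the mRNA. The eIF2 and eEF2 kinases, the EIF2C names of Argonaute proteins and the methyltransferases of eEF1A and eEF2 were left out. The members were the other protein-coding genes whose symbol begins with EIF1 to EIF6, EEF1 or EEF2. There were 58 such genes among 25680 genes or unnamed accessions in the tables, and 47 of them were tested. RNA held on streptavidin beads was sequenced from DU-145, an established line of human prostate carcinoma. In both groups the cells had received 60 nM of a miR-26a duplex by lipofection 24 h after seeding and had been irradiated at 365 nm with 2 J/cm2. The 2 biotin libraries came from cells given a mix of duplexes with a 3′ biotin and a thiouridine at nucleotide 7 or 17, and the 2 control libraries from cells given an untagged duplex. The biotin was never given without the thiouridine, so their effects cannot be told apart, and excess miR-26a was present in both groups. No library of unselected RNA was analysed here, so a lower value could not be told apart between less recovery on the beads and less RNA in the cells. The 2 libraries of a group are biological replicates by the study's own description.

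In outline, initiation starts when eIF2, a G protein, brings the initiator methionyl-tRNA to the small ribosomal subunit, where eIF1, eIF1A, eIF3 and eIF5 assemble and scan for the start codon. The mRNA is brought in by eIF4E, which holds the cap, eIF4G, a scaffold, and eIF4A, a helicase. The 4E-binding proteins compete with eIF4G for eIF4E when mTOR signalling is low. In elongation eEF1A delivers each aminoacyl-tRNA, the eEF1B complex reloads eEF1A with GTP, and eEF2 moves the ribosome by a codon. In cancer cells these factors are studied mainly as the output of mTOR and of the stress kinases that act on eIF2.

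The sequence behind the comparison is the guide strand itself, shown because it carried the tag of the pull-out; its seed, bases 2 to 8 from the 5′ end, is in capitals (RefSeq, GRCh38.p14).
hsa-miR-26a-5p: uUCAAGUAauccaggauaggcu
The complement of that seed, TACTTGA, was searched on the transcript strand in the 3′ UTR of each tested member, from the GENCODE 29 model of its leading transcript and only as far as the deposited transcript end. It occurred in 5 of 47 members (10.6%), against 10.0% of 9246 tested genes with such a model, whose 3′ UTRs had a median of 811 nt against 430 nt for the members. The sites of these 5 genes are given 5′ to 3′ with the match in capitals. For EIF4G2 and EIF5, which each held 2, the first is printed. The hg38 coordinates are those of the capital bases.
EEF1A1, chr6:73516224-73516230, minus strand: aagattcaaaggTACTTGAattggcca
EIF2S1, chr14:67384534-67384540, plus strand: attctcttatgaTACTTGAggtaccag
EIF3A, chr10:119035462-119035468, minus strand: ttctttagatttTACTTGAgagaaggt
EIF4G2, chr11:10797432-10797438, minus strand: tttgctcagtaaTACTTGAgttgttgc
EIF5, chr14:103343143-103343149, plus strand: aaacagctaagtTACTTGAttaaaata
Of these, EIF3A was higher in the biotin libraries and the other 4 did not pass the test, with log2 fold changes from -0.45 for EEF1A1 to -0.05 for EIF2S1. The remaining 8 members that passed had no match in the searched window. That window held only 1 base for EIF2B4, and it stopped more than 50 bases short of the deposited end in 6 members, EIF2B3 and EIF4E among them. EIF4EBP2, with the largest increase of all members, had no match in a 3′ UTR of 6871 nt. A match is a description of the sequence and not evidence of binding.

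Mapped reads, estimated from coverage, came to 16030000 and 17830000 for the controls and 17560000 and 23640000 with the tag. At that depth 3 reads on 1 kb of transcript amount to 0.127 to 0.187 FPKM, the deposited unit (fragments per kilobase of transcript, scaled to library depth), for counting error only. Over 9908 tested genes, which are not independent replicates, Pearson's r was 0.972 between the controls, 0.970 between the biotin libraries and 0.876 to 0.883 between groups. Of 6 DU-145 markers, KRT8, KRT18 and KRT19 were between 20.7 and 74.3 FPKM and EPCAM and CDH1 between 1.70 and 2.97 FPKM, and these 5 did not pass the test. The sixth, EGFR, was higher, at 15.9 and 16.7 FPKM with the untagged duplex and at 31.6 and 37.3 with the tagged one (1.03 ± 0.18 on the log2 scale, limma adjusted p = 0.0136). KLK3, KLK2 and the blood markers PTPRC, CD3E and HBB were listed at 0 in all 4 libraries. With the tagged duplex 1304 of all tested genes had a higher value (13.2%) and 925 a lower one (9.34%), by a two-sided limma test on log2(FPKM + 1) at a Benjamini-Hochberg adjusted p below 0.05, and with upper-quartile scaling 1226 were higher and 1387 lower. An exact permutation test of 2 against 2 libraries cannot go below p = 0.333, so each call depends on the spread that limma shares across genes.

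EIF4EBP2, EIF2B5 and EIF3A were higher and EIF3E, EIF3H, EIF3G, EIF2B3, EEF1B2 and EIF2B4 lower, while 38 did not pass the test. The 9 genes that passed were 19.1% of the tested members, near the 22.5% over all tested genes. The 3 higher genes were 6.38% of the members, against 13.2% of all tested genes, and the 6 lower genes 12.8%, against 9.34%. The median log2 fold change was -0.33 for the members and -0.06 for all tested genes, and 34 of 47 members lay below 0 (72.3%), against 55.4% of all. Both biotin libraries lay below both controls in 25 members (53.2%; background 37.7%) and above them in 8 (17.0%; background 29.3%), and the groups overlapped in 14. At an unadjusted p below 0.05, 13 members were lower (27.7%; background 19.8%) and 4 higher (8.51%; background 19.5%). Of the 11 members not tested, EEF1D, EEF1E1, EIF4E1B and EIF4EBP3 were listed at 0 in all 4 libraries, 6 were below the filter of 1 FPKM in 2 libraries, and EIF4A1 had a transcript of low-data status. No member passed the filter through a single group, since 46 of 47 were at 1 FPKM or more in all 4 libraries.

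**Figure D1:**
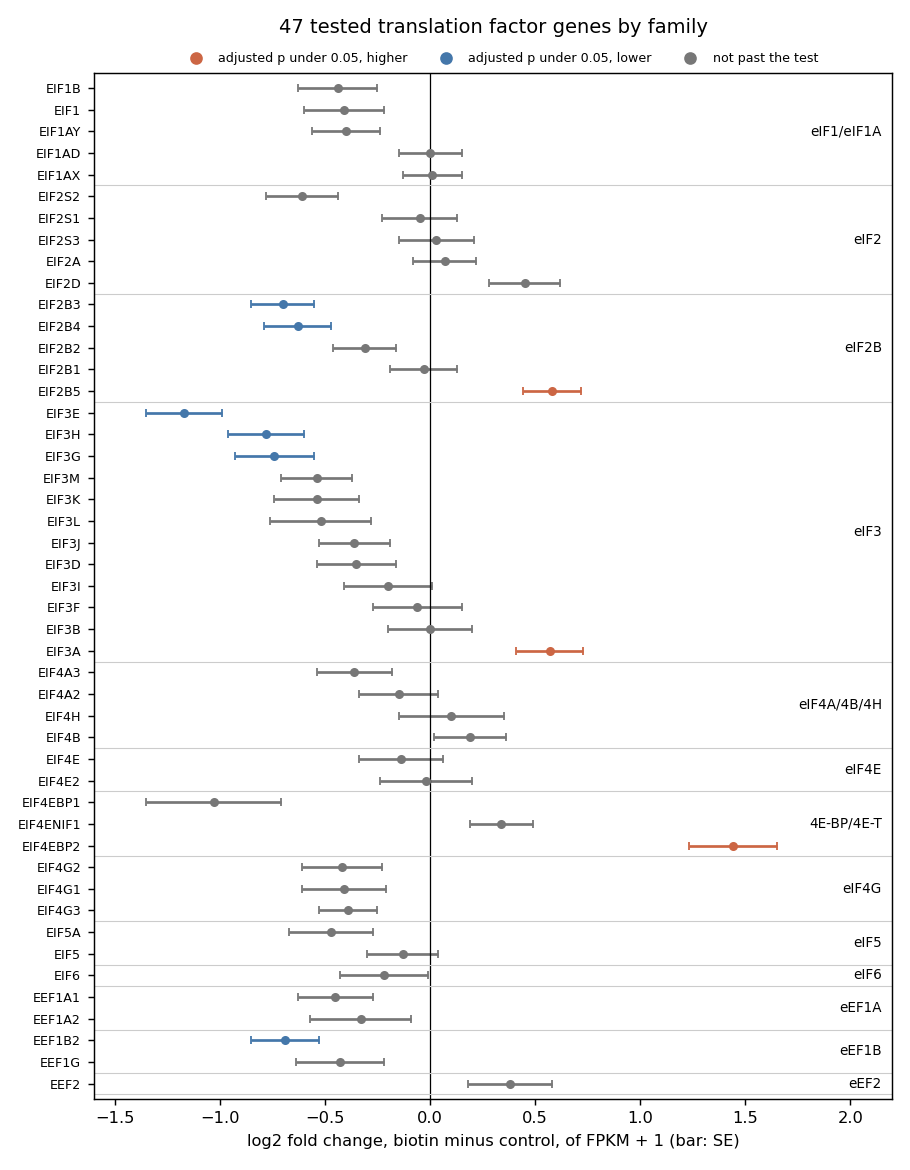
Log2 fold change (biotin minus control, of FPKM + 1) of the 47 tested translation factor genes, grouped by family; points are limma estimates from 2 libraries per group, bars their SE. Most points lie left of 0, 3 genes passed as higher and 6 as lower, and EIF4EBP2 and EIF3E mark the ends at 1.44 and -1.17.

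The eIF4E-binding inhibitors had log2 fold changes from -1.03 to 1.44. EIF4EBP2 and EIF4EBP1 encode 4E-BP2 and 4E-BP1, small proteins that block eIF4E until mTOR phosphorylates them. EIF4EBP2 (chr10:70404105-70428618, hg38; transcript of 7531 nt) was at 13.0 and 14.7 FPKM with the untagged duplex and at 34.2 and 45.0 with the tagged one. Both biotin values lay above both controls, and the rise from 13.9 ± 1.19 to 39.6 ± 7.64 FPKM (mean ± SD, n = 2) came to 1.44 ± 0.21 (SE) on the log2 scale (limma adjusted p = 0.00698). EIF4EBP1 (chr8:38030502-38060365; 859 nt) was at 38.4 and 61.8 FPKM with the untagged duplex and at 30.0 and 18.2 with the tagged one. Its groups did not overlap either, but its replicates were far apart and the difference did not pass (-1.03 ± 0.32; limma adjusted p = 0.066, 95% interval -1.81 to -0.24). EIF4EBP1 passed as lower with a mean of at least 5 FPKM required, with upper-quartile scaling and with quantile normalization (limma adjusted p = 0.0413, 0.0369 and 0.0306), and leaving out 1 library moved it between -1.37 (without biotin replicate 1) and -0.68 (without biotin replicate 2), with -1.36 and -0.69 without control replicates 1 and 2. Within a library, the FPKM of EIF4EBP2 was 0.340 and 0.238 times that of EIF4EBP1 in the control samples and 1.14 and 2.48 times in the tagged ones, so their order turned over; this ratio was not tested. EIF4ENIF1, the 4E-transporter that carries eIF4E into the nucleus and to P-bodies, was at 1.21 and 0.927 FPKM with the untagged duplex and at 1.72 and 1.52 with the tagged one (0.34 ± 0.15, not past the test), and EIF4EBP3 was listed at 0 in all 4. EIF4EBP2 kept its call without biotin replicate 1 or 2 (limma adjusted p = 0.0201 and 0.0357) and lost it without control replicate 1 or 2 (0.0795 and 0.0676) and with single transcripts (0.0601).

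**Figure D2:**
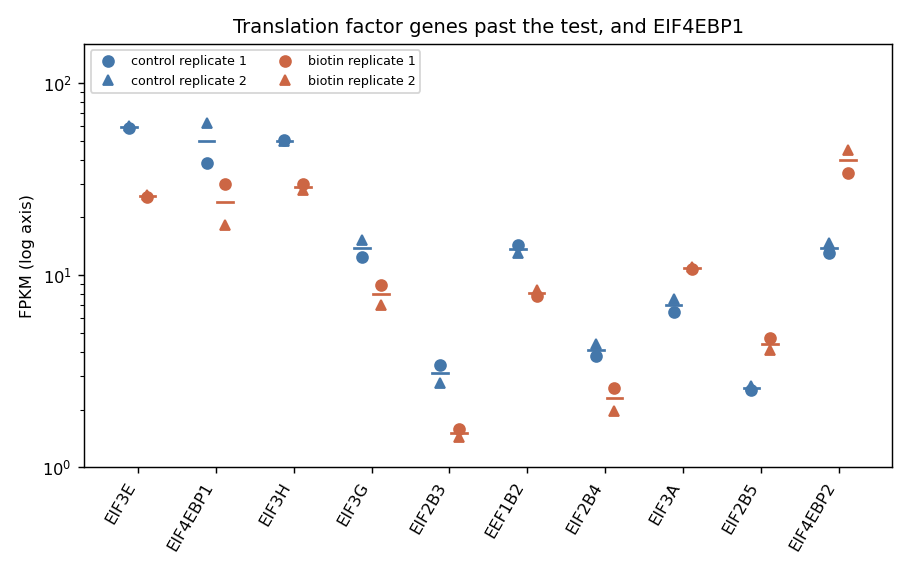
FPKM (log axis) in each library for the 9 translation factor genes past the test and for EIF4EBP1, which did not pass; circles and triangles are replicates 1 and 2, short lines group means. In each gene the groups do not overlap; over all tested genes both biotin values lie below both controls in 37.7% and above them in 29.3%. EIF4EBP2 has its values in the order control against biotin at 13.0 and 14.7 against 34.2 and 45.0 FPKM.

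The largest scaffold of initiation, eIF3, which binds the small subunit and keeps it apart from the large one, had 12 tested subunits of 14. Of these 3 were lower (25.0%; all tested genes 9.34%), 1 was higher (8.33%; all tested genes 13.2%) and 8 did not pass. EIF3E, a subunit also known as INT6 after a mouse tumour virus integration site, was at 58.5 and 60.1 FPKM with the untagged duplex and at 25.5 and 26.1 with the tagged one (chr8:108201743-108248730). Its replicates agreed closely, and it fell from 59.3 ± 1.10 to 25.8 ± 0.434 FPKM (mean ± SD, n = 2), which is -1.17 ± 0.18 on the log2 scale (limma adjusted p = 0.00814). EIF3H, another non-core subunit and a gene amplified in some prostate cancers, was at 50.4 and 50.2 FPKM with the untagged duplex and at 30.0 and 27.7 with the tagged one (-0.78 ± 0.18, limma adjusted p = 0.0281). EIF3G, an RNA-binding subunit, was at 12.4 and 15.3 FPKM with the untagged duplex and at 8.85 and 7.03 with the tagged one (-0.74 ± 0.19, limma adjusted p = 0.0406). In each of these 3 genes, chosen by a test on the same values, both biotin libraries lay below both controls, as in 37.7% of all tested genes. The EIF3G locus shares 375 bp with P2RY11, a receptor gene on the opposite strand. P2RY11 had a mean of 3.01 FPKM and a log2 fold change of 2.8. Whether the counting used the strand that the library kit preserves is not given, and a part of P2RY11 reads in EIF3G was not tested.

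EIF3A, the largest core subunit and the scaffold of the complex, moved the other way, at 6.47 and 7.54 FPKM with the untagged duplex and at 10.8 and 11.01 with the tagged one. The biotin values were close to each other and above both controls (0.57 ± 0.16, limma adjusted p = 0.0487), an increase near the threshold. In each library EIF3A was less abundant per length than EIF3E, at 0.111 and 0.125 of it in the control samples and 0.423 and 0.422 in the tagged ones. These genes were paired because they were called in opposite directions, and their ratio was not tested. Among subunits that did not pass, EIF3K was the most abundant in every library, at 111 and 103 FPKM with the untagged duplex and at 80.4 and 66.4 with the tagged one (-0.54 ± 0.20), followed by EIF3I at 60.9 and 54.9 against 44.6 and 56.6 FPKM (-0.20 ± 0.21). EIF3M (-0.54 ± 0.17), EIF3L (-0.52 ± 0.24), EIF3J (-0.36 ± 0.17) and EIF3D (-0.35 ± 0.19) had negative values, with adjusted p from 0.0632 for EIF3M to 0.22 for EIF3D (limma). EIF3M passed as lower in 4 of the 17 alternatives, upper-quartile scaling and quantile normalization among them. EIF3B, another core subunit, and EIF3F lay near 0 (0.00 ± 0.20 and -0.06 ± 0.21), with 95% intervals of -0.49 to 0.49 and -0.58 to 0.46. EIF3C and its near-identical copy EIF3CL were below 0.04 FPKM in every library and were not tested; reads of such a pair can be divided or discarded. Without control replicate 1 or 2 EIF3E lost its call (limma adjusted p = 0.0739 and 0.0711) and without biotin replicate 1 or 2 it kept it (0.0441 and 0.0416). EIF3H, EIF3G and EIF3A lost theirs whichever of the 4 libraries was dropped (0.0837 to 0.119, 0.0828 to 0.175 and 0.115 to 0.175). Over all 17 alternatives EIF3E passed in 15, EIF3H in 11, EIF3G in 8 and EIF3A in 5.

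**Figure D3:**
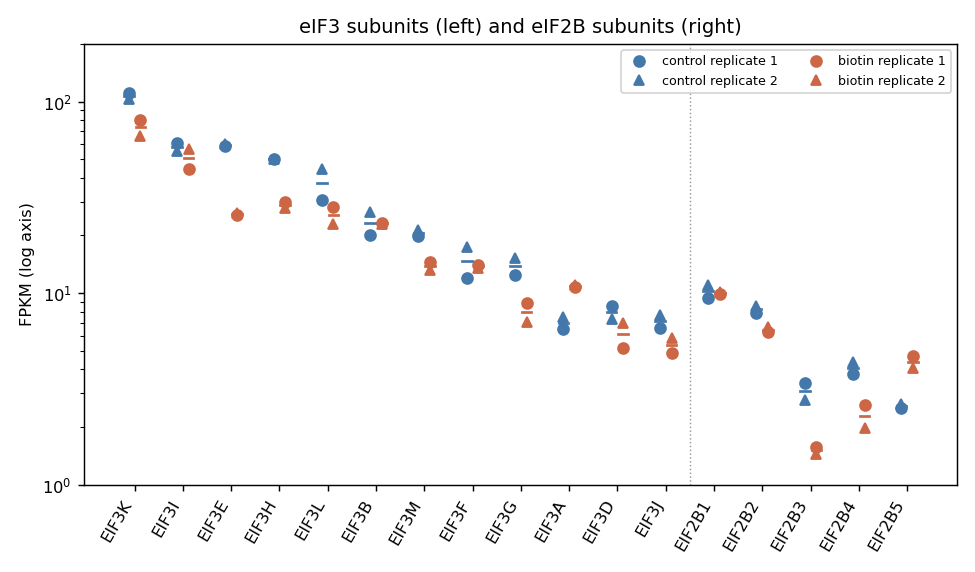
FPKM (log axis) of the 12 tested eIF3 subunits, ordered by mean level, and of the 5 eIF2B subunits, in each library; circles and triangles are replicates 1 and 2, short lines group means. EIF3E, EIF3H and EIF3G are among the subunits with both biotin values below both controls (37.7% of all tested genes). EIF3A and EIF2B5 have them above (29.3% of all tested genes).

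Subunits of eIF2B also moved in both directions. This complex recharges eIF2 with GTP, is the target that phosphorylated eIF2 blocks in the integrated stress response, and is mutated in vanishing white matter disease. EIF2B5, its catalytic epsilon subunit, was at 2.52 and 2.65 FPKM with the untagged duplex and at 4.69 and 4.08 with the tagged one (0.58 ± 0.14, limma adjusted p = 0.034), with the groups apart. EIF2B3, the gamma subunit, was at 3.41 and 2.75 FPKM with the untagged duplex and at 1.58 and 1.44 with the tagged one (-0.70 ± 0.15, limma adjusted p = 0.0243), and EIF2B4, the delta subunit, at 3.80 and 4.37 FPKM with the untagged duplex and at 2.60 and 1.98 with the tagged one (-0.63 ± 0.16, limma adjusted p = 0.0378). Both were lower in each biotin library than in either control. These levels of 1.44 to 4.69 FPKM are low, and the pseudocount of 1 shrinks their fold changes. With a pseudocount of 0.1 those of EIF2B5, EIF2B3 and EIF2B4 were 0.74, -0.98 and -0.82. A pseudocount of 5 shrank them further, to 0.31, -0.31 and -0.32. EIF2B1 and EIF2B2, the alpha and beta subunits, did not pass, at -0.03 ± 0.16 and -0.31 ± 0.15. EIF2B5 was the least abundant of the 5 subunits in both controls and lay above EIF2B4 in both biotin libraries. The EIF2B5 to EIF2B4 ratio of FPKM was 0.664 and 0.608 in the control samples and 1.81 and 2.07 in the tagged ones. This pair was chosen from genes called in opposite directions, and the ratio was not tested. EIF2B3 was the sum of 3 transcripts whose shares varied between replicates, and its leading transcript NM_020365 alone had a log2 fold change of 0.14 (limma adjusted p = 0.847). All 3 calls were lost with any library left out (limma adjusted p between 0.0712 and 0.181).

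The trimeric eIF2 gave no call among its 3 subunits and the 2 other initiator tRNA factors (limma; EIF2S2 and EIF2D at an unadjusted p below 0.05). EIF2S1, the alpha subunit phosphorylated under stress, was at 10.7 and 9.16 FPKM with the untagged duplex and at 10.7 and 8.47 with the tagged one, and EIF2S3, the GTP-binding gamma subunit, at 21.1 and 24.1 FPKM with the untagged duplex and at 24.1 and 22.1 with the tagged one; the groups overlapped in both. Their log2 fold changes were -0.05 ± 0.18 and 0.03 ± 0.18, with 95% intervals of -0.50 to 0.40 and -0.40 to 0.47. EIF2S2, the beta subunit, was picked out after its values were seen because it lay at the threshold, at 7.92 and 9.27 FPKM with the untagged duplex and at 5.86 and 4.71 with the tagged one (-0.61 ± 0.17, limma adjusted p = 0.0507). It passed as lower in 4 of 17 alternatives: a pseudocount of 5, a mean of at least 5 FPKM, upper-quartile scaling and quantile normalization (limma adjusted p = 0.0491, 0.0358, 0.026 and 0.0301; up to 0.214 over all 17). EIF2A and EIF2D, which can deliver initiator tRNA without eIF2, were at 0.07 ± 0.15 and 0.45 ± 0.17.

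None of the 5 genes whose symbol begins with EIF1 passed the limma test (1 at an unadjusted p below 0.05). EIF1, which guards the choice of the AUG, was at 55.9 and 64.0 FPKM with the untagged duplex and at 45.9 and 43.6 with the tagged one (-0.41 ± 0.19, limma adjusted p = 0.157), both biotin values below the controls. Its paralogue EIF1B was at -0.44 ± 0.19, while EIF1AX, the X-linked gene of eIF1A, stayed between 1.34 and 1.53 FPKM in all 4 libraries (0.01 ± 0.14). The other 2 genes of this group, EIF1AD and EIF1AY, did not pass.

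In the cap-binding and helicase groups no tested gene passed (limma; 0 also at an unadjusted p below 0.05). EIF4E, the cap-binding protein and a known oncogene, was low, at 2.16 and 1.39 FPKM with the untagged duplex and at 1.21 and 1.81 with the tagged one, and its groups overlapped (-0.14 ± 0.20, 95% interval -0.63 to 0.35). EIF4E2, a cap-binding homologue that represses translation, was at 4.22 and 6.95 against 5.36 and 5.40 FPKM (-0.02 ± 0.22). The helicase paralogue EIF4A2, which has been linked to miRNA silencing, was at 29.6 and 36.4 FPKM with the untagged duplex and at 29.8 and 29.2 with the tagged one (-0.15 ± 0.19, 95% interval -0.61 to 0.31), and EIF4A3, the helicase of the exon junction complex, at 19.7 and 23.8 against 17.5 and 16.0 FPKM (-0.36 ± 0.18). The helicase cofactors EIF4B and EIF4H were at 0.19 ± 0.17 and 0.10 ± 0.25. EIF4A1, the main helicase, could not be tested under the rule used because its transcript NM_001416 carried a low-data status with a value of 0 in every library; the other transcript was at 52.1 and 44.1 FPKM with the untagged duplex and at 32.0 and 31.1 with the tagged one, with both biotin values below the controls. With low-data genes kept, EIF4A1 had a log2 fold change of -0.59 ± 0.19 and did not pass (limma adjusted p = 0.0683, an alternative chosen after seeing the data). EIF4A1 has 13 and EIF4A2 5 named pseudogenes in GENCODE 29, and whether reads were assigned to them was not tested.

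The eIF4G scaffolds lay at nearly equal values below 0 without passing (limma; EIF4G3 alone at an unadjusted p below 0.05). EIF4G2, also called DAP5, supports initiation without the cap and was the fourth most abundant tested member, at 74.4 and 75.3 FPKM with the untagged duplex and at 52.0 and 59.3 with the tagged one (-0.42 ± 0.19, limma adjusted p = 0.149; -0.22 for its leading transcript alone). EIF4G1, the main scaffold, was at 21.3 and 16.8 against 15.3 and 12.9 FPKM (-0.41 ± 0.20) and EIF4G3 at 2.68 and 2.77 against 2.01 and 1.66 FPKM (-0.39 ± 0.14). In each of these genes both biotin libraries lay below both controls, as in 37.7% of all tested genes. EIF4G1 was listed as 8 transcripts, of which 4 were at 0 in all libraries, and NM_198242 led in each library.

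Joining of the subunits and later steps showed no call for EIF5, EIF5A and EIF6 (limma; 0 also at an unadjusted p below 0.05). EIF5, which triggers GTP hydrolysis by eIF2, was at 12.1 and 10.7 against 10.98 and 9.71 FPKM (-0.13 ± 0.17), and EIF5A, the hypusine-bearing factor that relieves stalled ribosomes, at 46.1 and 36.7 FPKM with the untagged duplex and at 27.6 and 31.5 with the tagged one (-0.47 ± 0.20, limma adjusted p = 0.144). EIF6, which keeps free large subunits from joining, was abundant, at 84.6 and 108 FPKM with the untagged duplex and at 84.4 and 80.4 with the tagged one (-0.22 ± 0.21). Biotin replicate 2 drew 23.7 FPKM of its EIF6 value from NR_052024, a noncoding transcript of the gene at 0 in the other 3 libraries. With coding transcripts alone EIF6 was at -0.46 (limma adjusted p = 0.252), and leaving out 1 library gave -0.04 (without control replicate 2) to -0.39 (without control replicate 1), none past the test. EIF5B, the GTPase of subunit joining, was at 0.648 and 0.448 against 0.403 and 0.415 FPKM and, with EIF5A2, EIF5AL1 and EIF4E3, below the filter.

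Of the elongation factors 1 passed the test, among 2 tested genes of eEF1A, 2 of the eEF1B complex and 1 of eEF2. Over all tested genes 22.5% passed in either direction. EEF1B2, the beta subunit of the exchange complex of eEF1A, fell from 13.7 ± 0.867 to 8.10 ± 0.387 FPKM (mean ± SD, n = 2; by library 14.3 and 13.1 against 7.83 and 8.38 FPKM), which is -0.69 ± 0.16 on the log2 scale (limma adjusted p = 0.0292); its call was lost with any library left out (0.102 to 0.122). EEF1G, the gamma subunit, was at 21.97 and 29.5 FPKM with the untagged duplex and at 17.7 and 19.7 with the tagged one (-0.43 ± 0.21), and EEF1D and EEF1E1 were listed at 0 in every library. EEF1D was given as 8 transcripts, each listed both on chromosome 8 and on an alternate scaffold. These genes are used by all cells, so the listed 0 is not read as absence.

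EEF2, the translocase, was the most abundant member in all 4 libraries, at 294 and 352 FPKM with the untagged duplex and at 416 and 423 with the tagged one. The biotin values were above both controls, but the difference did not pass (0.38 ± 0.20, limma adjusted p = 0.211, 95% interval -0.11 to 0.87). With quantile normalization EEF2 was at 0.90 and passed (limma adjusted p = 0.0233), and it passed in none of the other 16 alternatives (limma; up to 0.46). EEF1A1, normally a very abundant mRNA, was at 35.5 and 39.7 FPKM with the untagged duplex and at 27.9 and 26.4 with the tagged one (-0.45 ± 0.18, limma adjusted p = 0.115). It passed as lower with upper-quartile scaling (limma adjusted p = 0.0498) and with quantile normalization (0.0417). GENCODE 29 names 39 pseudogenes after EEF1A1, more than for any other member, and whether reads were assigned to them was not tested. Per length EEF2 was at 8.31 and 8.88 times the EEF1A1 value in the controls and at 14.9 and 16.1 times with the biotin tag, a ratio that was not tested. EEF1A2, the paralogue of nerve and muscle that some tumours express, was at 61.0 and 51.6 FPKM with the untagged duplex and at 53.1 and 37.4 with the tagged one, with overlapping groups (-0.33 ± 0.24).

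Transcript length moved with these values. Across the 47 members the log2 fold change was larger with greater length of the leading transcript (Spearman rho = 0.57, Pearson r = 0.58 on log2 length), and without EIF4EBP1 and EIF4EBP2 rho was 0.51 over 45. Across all 9908 tested genes rho was 0.21; the points share the same 4 libraries and are not independent. Of 14 members under 1500 nt, 0 were higher and 3 lower (21.4%), with a median of -0.45; over all tested genes of that length 8.4% were higher and 23.7% lower, with a median of -0.36. Of 17 members from 1500 to under 3000 nt, 1 was higher (5.9%) and 3 lower (17.6%), with a median of -0.35, against 13.7%, 8.2% and -0.06 over all tested genes. Of 16 members of 3000 nt or more, 2 were higher (12.5%) and 0 lower, with a median of 0.00, against 14.6%, 4.8% and 0.00. Single pairs did not all follow the order of length: EIF4EBP2, EIF3A and EIF2B5 have longer leading transcripts than EIF4EBP1, EIF3E and EIF2B4, but EEF2, with the higher value, has 3158 nt and EEF1A1 3512 nt. The part of length in these differences was not tested. For 3′ UTR length rho was 0.44 among members and 0.13 over 9134 genes. GC content of the 3′ UTR showed no such relation among members (rho = -0.01, against 0.29 over 9134 genes). For the mean level rho was -0.24 among members and -0.06 over all tested genes.

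**Figure D4:**
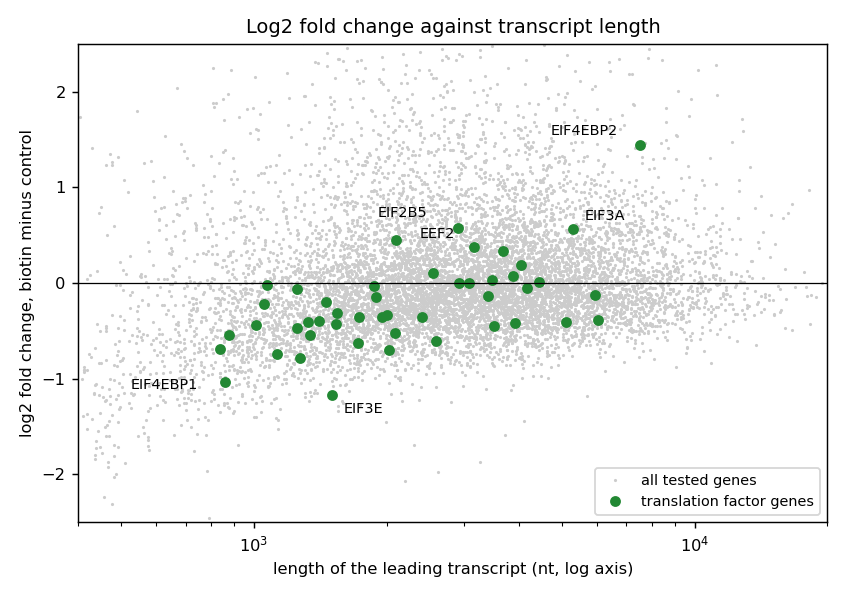
Log2 fold change (biotin minus control) against the length of the leading transcript (nt, log axis) for the 47 tested members over all tested genes; 129 genes fall outside the plotted range. Members under 1500 nt lie mostly below 0, with a median of -0.45, and EIF4EBP2 is both the longest member and the one with the largest increase.

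Several factor mRNAs carry a 5′ terminal oligopyrimidine tract, the element through which mTOR and LARP1 control ribosomal protein mRNAs. Of 10 members listed as such from general knowledge, 9 were tested: EIF3E, EIF3H and EEF1B2 were lower, EIF3A higher and 5 did not pass, with a median of -0.43. The 38 other tested members had 3 lower and 2 higher and a median of -0.32. The shares of lower genes were 33.3% and 7.89%, beside 9.34% for all tested genes. Those of higher genes were 11.1% and 5.26%, beside 13.2%, and those of genes below 0 were 66.7% and 73.7%, beside 55.4%. Of the 5 listed members that did not pass, EEF2 and EIF4B had positive values and EEF1A1, EEF1G and EIF3F negative ones. All of this is a description of a list chosen with these results known.

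The wider pathway was described from a list of 43 genes of termination, recycling, regulation and modification, of which 39 were tested. Of these 5 were higher (12.8%; all tested genes 13.2%), 3 lower (7.69%; all tested genes 9.34%) and 31 did not pass, and the median log2 fold change was 0.01. DPH2, an enzyme of the diphthamide modification that eEF2 carries, was at 7.41 and 7.95 FPKM with the untagged duplex and at 42.5 and 36.8 with the tagged one (2.22 ± 0.17, limma adjusted p = 0.00106), a larger increase than that of any member. RPS6KB2, an S6 kinase downstream of mTOR, was at 10.4 and 14.3 FPKM with the untagged duplex and at 73.1 and 42.9 with the tagged one (2.11 ± 0.30). ABCE1, which splits ribosomes after termination, was at 17.9 and 18.4 FPKM with the untagged duplex and at 41.0 and 67.0 with the tagged one (1.48 ± 0.26; with single transcripts 0.92, limma adjusted p = 0.879).

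EIF2AK3 encodes PERK, the eIF2 kinase of the endoplasmic reticulum, and was at 1.03 and 1.13 FPKM with the untagged duplex and at 3.38 and 4.37 with the tagged one (1.22 ± 0.16). MKNK2, a kinase of eIF4E, was at 28.2 and 36.6 FPKM with the untagged duplex and at 66.4 and 61.7 with the tagged one (0.97 ± 0.21). The lower genes were TPT1, a tumour protein with a TOP mRNA, at 19.2 and 24.1 against 9.53 and 11.1 FPKM (-1.0 ± 0.19), the ribosome rescue factor PELO at 10.8 and 7.37 against 3.93 and 5.37 FPKM (-0.83 ± 0.23) and the diphthamide enzyme DPH5 at 2.25 and 1.74 against 1.04 and 1.03 FPKM (-0.55 ± 0.15). DPH2 passed whichever library was left out (limma adjusted p = 0.00771 to 0.0436). RPS6KB2, ABCE1 and EIF2AK3 lost the call without control replicate 1 (0.0821, 0.103 and 0.0691) and without control replicate 2 (0.0634, 0.103 and 0.0581), and MKNK2, TPT1, PELO and DPH5 in all 4 (0.0604 to 0.2). With single transcripts DPH2 and MKNK2 alone of these 8 passed. None of the 6 tested mitochondrial factors of this list passed (limma; lowest log2 fold change -0.51 ± 0.15 for GFM1, 1 of 6 at an unadjusted p below 0.05).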

How the data were processed

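RNA from 4 streptavidin pull-outs was analysed, 2 with biotinylated and 2 with untagged miR-26a. The submitters' processing notes name TopHat2 2.0.9, Cuffdiff, Cufflinks 2.1.1, cutadapt and FastQC 0.10.1, and build hg38. Their settings, the annotation and the use of strand are not stated in those notes or the labels. The authors deposited 53209 transcript rows per library, and per the file headers the values are FPKM. The deposited coverage served only to estimate depth, and reads had 50 bases. Of 46699 accessions 98.6% were named through the RefSeq gene table (GRCh38.p14) or GENCODE 29, and FPKM was summed per gene. Genes at 1 FPKM or more in at least 2 libraries were tested with limma 3.58.1 in R 4.3.3 (variance trend, residual df 2, prior df 4.2) on log2(FPKM + 1). Short RNA genes and 39 genes with a row of other than OK status were left out. The fit was checked on simulated data for the recovery of planted changes of known size. The simulated noise depended only on a gene's level, so this could not check how limma shares the spread across unlike genes.

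The members, families and lists were chosen with earlier results of these data known. By rule the text gives each member past the threshold, the 5 most abundant, family examples and the 8 largest changes called in the pathway list; further members are family examples picked with values known. The 15 alternatives were other pseudocounts, filters, scalings and variance settings, single transcripts, short RNAs kept, a replicate block and each library left out. After the data were seen, 2 more were added, with low-data genes kept and with coding transcripts alone.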

Additional observations from a re-analysis of the deposited data

How the results depend on the processing

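Main counts were 3 higher and 6 lower members, 5 and 3 pathway genes, and 1304 and 925 of all genes. Without a filter these were 1 and 2, 3 and 0, and 653 and 231; with single transcripts 0 and 1, 2 and 0, and 250 and 87. Upper-quartile scaling and quantile normalization each gave 10 lower members and 5 lower pathway genes, and median-of-ratios scaling 8 higher and 1 lower pathway genes. With short RNA genes kept 1 pathway gene was lower. The replicate block gave 1 higher and 2 lower members, 1 lower pathway gene and 540 lower genes in all. Same-numbered libraries did not deviate together (r = 0.00459 over 9908 genes), and the labels do not say that a number marks a shared batch. Leaving out each library gave 0 to 1 higher and 0 to 1 lower members, 1 to 4 higher and 0 lower pathway genes, and 185 to 696 higher and 32 to 233 lower genes. Such a fit assumes that the lone library varies like the others. The members' median of -0.33 was -0.21 with a pseudocount of 5 and -0.20 without a filter. With coding transcripts alone EIF3A, EIF3G, PELO and DPH5 lost their calls (limma adjusted p = 0.0557, 0.0504, 0.0594 and 0.0592). EIF2B3 turned to 0.14 with single transcripts, where only NM_020365 was read; no other called member changed direction in the 17 alternatives, of which EIF2B3, EIF2B4 and EIF2B5 have 16, with no value where a mean of 5 FPKM was required. The causes of the other differences were not tested.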

Other observations

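Several member loci overlap small RNA genes, which total-RNA libraries also record. The EIF4A2 locus overlaps SNORA63, SNORA4, SNORA81 and SNORD2 on the same strand, and that of EIF4A1 overlaps SNORA48, SNORA67 and SNORD10. Over the 4 libraries SNORA63 had a mean of 2528 FPKM and SNORD2 of 598, beside 31.2 for the EIF4A2 mRNA, and SNORA48 had 1746, beside 39.8 for EIF4A1. SNORA67 and SNORA4 were lower, at 193 and 239 FPKM. MIR3654, within the EEF1G locus, was at 9187 FPKM. Values per kilobase are unstable for such short RNAs. EEF2, EEF1B2, EIF3A, EIF4G1, EIF4G2 and EIF5 each overlap at least 1 small RNA as well.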
